A study of Arabidopsis thaliana with 20 samples.

Results

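Type-B ARRs are transcription factors that act at the end of the cytokinin (CK) phosphorelay in Arabidopsis, and ARR1, ARR10, and ARR12 act redundantly in the root. Plant cells use hydrogen peroxide both as a substrate and as a signal. Secreted class III peroxidases consume it in the cell wall, where they can stiffen or loosen the wall, and ascorbate peroxidases remove it inside the cell by oxidizing ascorbate, which reductases such as MDAR1 then restore. Thioredoxins and methionine sulfoxide reductases repair oxidized proteins, and heat shock factors and small heat shock proteins respond to heat as well as to oxidants.

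The genes described here were 31 of the 50 genes that the study's lists of genes with reduced expression carried under response to oxidative stress or response to reactive oxygen species. Of the 31 genes, 23 stood under both terms and 8 under oxidative stress only. A gene entered when its differences between the mutants and WT matched those of exactly 1 spot of the array within 0.0005 on the log2 scale. The farthest accepted match lay 4.41e-05 away and the closest rejected spot 0.0519 away, and the other 19 genes were not paired and are not analysed here. None of the listed genes also stood under secondary metabolic process in the copy of the lists used here, which is shortened for 1 cluster. By function the members were 11 class III peroxidases, 4 genes of the ascorbate cycle and of superoxide removal, 3 genes of thiol redox control and protein repair, 5 heat and stress regulators and chaperones, and 8 signalling or other genes.

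RNA was measured in roots of 10-day-old Col-0 seedlings on 20 Agilent one-colour arrays, with 2 biological replicates in each of 10 groups. Untreated roots came from WT, from the triple mutant arr1/10/12, from its 3 double mutants (arr10/12, arr1/12, and arr1/10), and from the 3 single mutants (arr12, arr10, and arr1). The mutants were made from the T-DNA insertion alleles arr1-3, arr10-5, and arr12-1, so that each group rests on 1 insertion per gene. In the 2 treated groups, WT seedlings of the same age received the CK N6-benzyladenine at 5 μM, or mock solution, for 1 hour. Roots were cut off at about the junction with the hypocotyl. Values are log2 signals after quantile normalization, so that differences are log2 ratios, and a level is compared only between arrays of the same probe. In whole roots, fewer cells of a type and less RNA per cell cannot be told apart.

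The probe for ARR10 read 13.59 and 13.25 in WT and 7.56 and 8.57 in arr10, and the probe for ARR12 read 11.79 and 11.72 in WT and 4.56 and 5.34 in arr12. The probe for ARR1 read 11.99 and 12.01 in WT, 12.27 and 12.52 on the arrays labelled arr1, and 8.14 and 8.28 in arr1/10, so the arrays labelled arr1 showed no loss of the RNA that this probe reads. They did differ from WT in the CK-induced type-A genes ARR5 and ARR7, by −0.62 and −0.83, beside −0.10 and −0.16 for arr10 and −0.33 and −0.44 for arr12. Both genes were higher in CK-treated than in mock-treated WT by 3.01 and 2.63 (limma, adjusted p = 4.8e-08 and 3.1e-07). The share of probes well above background was 71.8% to 78.8% per array. The 3 photosynthesis markers (LHCA3, PSAH-1, and PSBTN) are not expected to be high in roots. Their median log2 signal was 15.07 on replicate 1 and 13.29 on replicate 2 of arr1/10/12, against 10.96 to 12.05 on the other 18 arrays.

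The members were selected on the mutant arrays themselves, as genes that the study called lower in at least 1 of the 7 mutants. The differences between mutants and untreated WT, and those between mock-treated and untreated WT, which share the same WT arrays, are therefore given as a description without a test. Only the response to CK compared arrays that took no part in the selection.

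The expression of most members was close to WT in the single mutants, slightly lower in the double mutants, and clearly lower in the triple mutant. The median log2 difference from WT over the 31 members was −0.09 in arr12, −0.01 in arr10, and −0.10 on the arrays labelled arr1. Among the double mutants, arr10/12 had −0.28, arr1/12 had −0.25, and arr1/10 had −0.23. This order did not hold under every setting. Without replicate 2 of WT arr10/12 had −0.16, and in the authors' table arr1/12 had −0.247 and arr10/12 had −0.244. In arr1/10/12 the median was −1.15, against −0.08 over all 34034 probes tested. In the triple mutant 22 members were below WT and 9 above, while 54.7% of all probes tested were below WT. Of the members, 16 were lower by more than 1, and 20 were lower than in any of the double mutants. No member was lower by more than 1 in any double mutant.

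**Figure D1:**
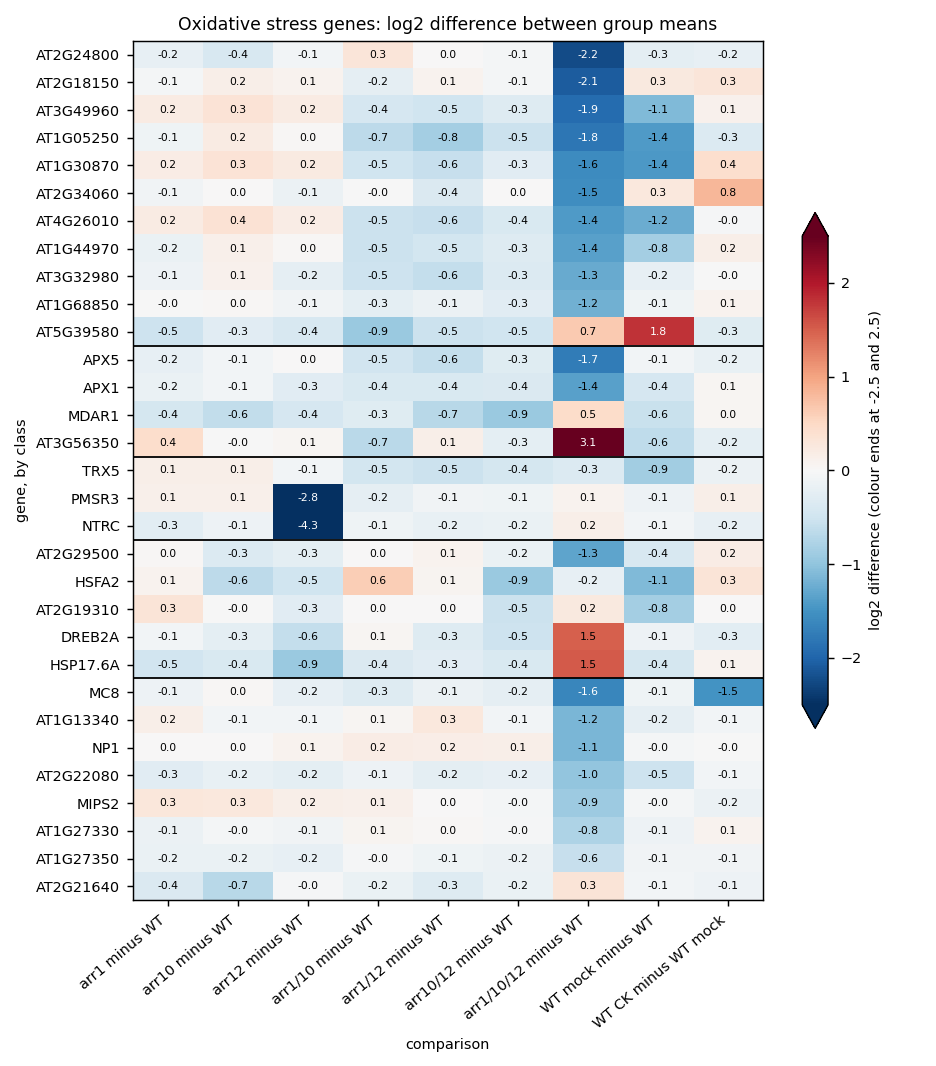
Log2 difference between group means for the 31 genes (rows, grouped by function and ordered by the triple mutant) in 9 comparisons (columns). Blue is lower and red is higher, and the number in each cell is the difference. The column of arr1/10/12 is dark for most genes while the single and double mutants are pale, except for NTRC and PMSR3 in arr12.

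Counts of calls were as follows, where a call is an adjusted p under 0.05 in the limma fit over all probes. In arr1/10/12, 20 members were called lower, beside 31.1% of all probes tested, and 5 higher, beside 23.2%. In arr1/12, 2 members (MDAR1 and APX5) were called lower, beside 1.37% of the probes, and in arr10/12, 1 member (MDAR1) was, beside 0.0911%. No member was called lower in arr1/10 (0.441% of the probes), on the arrays labelled arr1 (0.0529%), in arr10 (0.0264%), or in arr12 (0.0676%). With the replicate number as a block more probes were called in general, and these counts were 2 in arr10/12 (0.555% of the probes), 1 in arr1/10 (APX5, 2.04%), and 1 in arr12 (DREB2A, 0.144%). The rule used these contrasts, and nothing is read from the counts.

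Among the class III peroxidases, 10 of 11 were lower in the triple mutant, with a median difference of −1.55. AT2G24800 read 6.69 and 6.63 in WT and 4.81 and 4.05 in arr1/10/12, both arrays being not well above background. It was 4.69-fold lower by the measured means, an estimate that rests on these weak signals. On the 6 arrays of the single mutants it lay at 6.05, 6.40, and 6.86 (lowest, median, highest) and on the 6 arrays of the double mutants at 6.58, 6.67, and 7.23, all above the triple mutant. AT2G18150 was likewise lowest in the triple mutant, where it differed from WT by −2.08 ± 0.19 (SE from the fit, n = 2 against 2). In the double mutants it differed by −0.23 to 0.09. In mock-treated WT it differed from untreated WT by 0.25, against −0.25 for AT2G24800. The members whose 10 group means followed AT2G24800 most closely were NP1 (Pearson r = 0.98), AT1G27330 (0.96), and AT2G29500 (0.95), none of them a peroxidase. Each r rests largely on the triple mutant, the only group in which AT2G24800 lay far from the others. The points of these correlations share the same arrays.

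A second set of peroxidases, picked out after their values were seen, had intermediate values in the double mutants. AT3G49960 read 15.13 and 15.15 in WT, 15.11, 15.40, and 15.60 (lowest, median, highest) on the 6 arrays of the single mutants, 14.60, 14.71, and 14.89 on the 6 arrays of the double mutants, and 12.98 and 13.45 in the triple mutant. The triple mutant, the double mutants, and WT formed separate ranges, and all arrays of the single mutants lay above WT except replicate 2 of arr12. AT1G30870 and AT4G26010 followed the same order, with 0.18 to 0.36 above WT in the single mutants, −0.29 to −0.58 in the double mutants, and −1.56 ± 0.23 and −1.42 ± 0.25 in the triple mutant. The closest to AT3G49960 over the 10 group means were AT1G44970 (r = 0.98), AT1G30870 (0.97), and AT4G26010 (0.96).

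AT1G05250 had the lowest difference of all members in arr1/12 (−0.85). It read 14.91 and 14.53 in WT, 14.22 and 13.52 in arr1/12, and 13.11 and 12.73 in arr1/10/12. The arrays of arr1/12 and of WT did not overlap. Replicate 1 was above replicate 2 in all 8 untreated groups, and within replicates 1 and 2 arr1/12 differed from WT by −0.68 and −1.01. On arr12 the arrays read 15.41 and 14.07. AT1G05250 belongs to a family with near-identical copies, and its probe may not tell it from a neighbouring copy.

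These genes also differed between WT that was left untreated and WT that was mock-treated for 1 hour. AT3G49960 read 13.83 and 14.22 in mock-treated WT, a difference of −1.11 from untreated WT. For AT1G05250, AT1G30870, and AT4G26010 this difference was −1.42, −1.43, and −1.24. The 4 peroxidases in mock-treated WT therefore stood nearer to the triple mutant than to untreated WT. Over all 31 members, 5 were lower by more than 1 in mock-treated than in untreated WT, the fifth being HSFA2 (−1.10), 1 was higher by more than 1, and 19 stayed within 0.5. The median difference was −0.23, against −0.03 over all probes. The untreated replicates lay on 2 slides and each treated array on a slide of its own, so that slide and handling cannot be told apart here.

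The 7 root hair markers that could be paired with a probe were EXPA7, EXPA18, MRH1, MRH6, RHS18, RHS19, and RHD1. Like these peroxidases, they were lower in arr1/10/12 and in mock-treated WT, by amounts that varied between markers. They too stood in the study's table of genes that changed in the mutants. Their differences from untreated WT are therefore a description without a test. All 7 were lower in arr1/10/12 and all 7 were lower in mock-treated WT, with a median difference of −1.88 and −1.73. The differences ran from −3.01 to −0.40 in arr1/10/12 and from −2.21 to −0.14 in mock-treated WT. Their median log2 signal per array was 12.79 and 13.18 in WT, 12.25 to 12.72 in the double mutants, 10.85 and 11.44 in the triple mutant, and 10.89 and 11.71 in mock-treated WT. All 7 were well above background on all arrays. RHS18 and RHS19 are peroxidases themselves. The part of the root hair markers in the result was not tested.

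**Figure D2:**
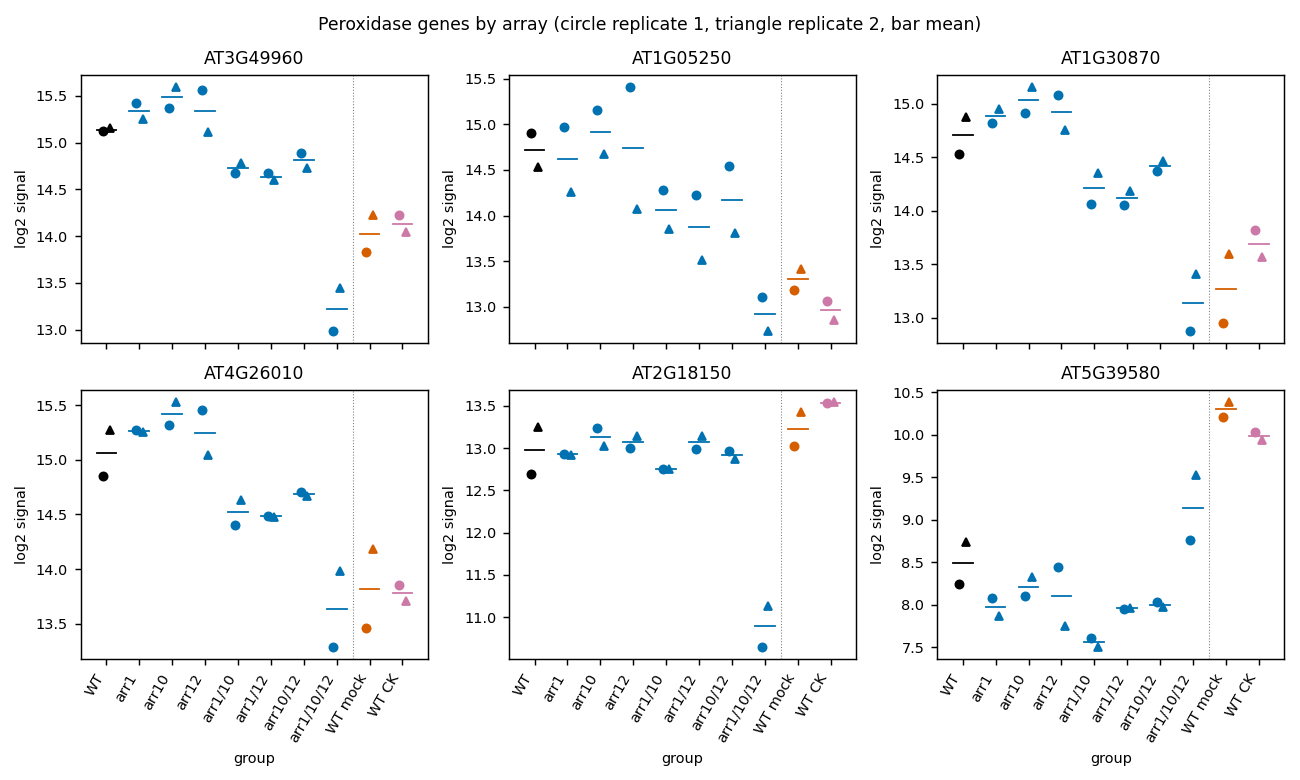
Log2 signal (y axis) of 6 peroxidase genes on each array, by group (x axis). Circles are replicate 1, triangles replicate 2, and bars the group mean. AT3G49960, AT1G05250, AT1G30870, and AT4G26010 are low in arr1/10/12 and also in mock-treated and CK-treated WT, AT2G18150 is low in arr1/10/12 only, and AT5G39580 is highest after mock treatment.

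AT5G39580 ran against the other peroxidases. It had the lowest difference from WT of all members in arr1/10 (−0.93), and was the only member the study placed in the cluster of arr1. It read 8.24 and 8.74 in WT, 8.08 and 7.87 on the arrays labelled arr1, 7.60 and 7.51 in arr1/10, and 8.76 and 9.52 in arr1/10/12. The double mutants were all below WT, and the triple mutant was above both. In mock-treated WT it read 10.22 and 10.38, which is 3.50-fold above untreated WT and above every untreated array.

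The 3 remaining peroxidases were lower in the triple mutant by similar amounts. AT1G44970 differed by −1.36, AT3G32980 by −1.26, and AT1G68850 by −1.20. All 3 were also below WT on every array of the double mutants, with lowest differences of −0.54, −0.59, and −0.28. Intermediate values in the double mutants were therefore not particular to the second set. AT2G34060, the other member of the class, differed by −1.55 and is described with the CK response.

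In the ascorbate cycle the members divided. APX1 and APX5, which encode ascorbate peroxidases, were lower in the triple mutant, and MDAR1 and the predicted superoxide dismutase gene AT3G56350 were higher. APX5 read 11.19 and 11.34 in WT, 10.63, 10.79, and 11.02 (lowest, median, highest) on the 6 arrays of the double mutants, and 9.63 and 9.39 in arr1/10/12, so that WT, double mutants, and triple mutant formed 3 separate ranges. APX1 differed by −0.38, −0.38, and −0.36 in the 3 double mutants and by −1.36 ± 0.14 in the triple mutant.

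AT3G56350 read 7.34 and 7.52 in WT and 9.70 and 11.43 in arr1/10/12, a difference of 3.13 ± 0.49 or 8.76-fold. It was the highest difference of any member, although the 2 triple mutant arrays stood 1.72 apart. On the other 18 arrays it lay between 6.09 and 7.88. The study had listed it for its lower expression in arr1/10, where it read 6.57 and 6.95.

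MDAR1 read 7.02 and 7.04 in WT, 6.27 and 5.93 in arr10/12, and 7.71 and 7.26 in arr1/10/12. It was below both WT arrays on all 12 arrays of the single and double mutants and above them on both arrays of the triple mutant. Its difference in arr10/12, −0.93, was the lowest of any member in that mutant.

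The heat and stress genes also divided in the triple mutant. HSP17.6A, a small heat shock protein gene, read 7.56 and 7.39 in WT, 6.61 and 6.48 in arr12, and 8.47 and 9.56 in arr1/10/12. All arrays of the single and double mutants lay below WT, between 6.48 and 7.30, and the triple mutant lay above every other array (1.53 ± 0.24, 2.89-fold). DREB2A, a transcription factor of drought and heat responses, read 10.13 and 10.11 in WT, 9.48 and 9.56 in arr12, and 11.49 and 11.75 in arr1/10/12 (1.50 ± 0.14, 2.83-fold). AT2G29500, another small heat shock protein gene, went the other way and read 13.47 and 13.50 in WT and 12.33 and 12.00 in the triple mutant, a difference of −1.32.

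HSFA2, a heat shock factor, varied between replicates, with 8.50 and 8.06 in WT, 9.34 and 8.44 in arr1/10, but 7.21 and 7.50 in arr10/12. It stood 0.61 above WT in arr1/10 and differed by −0.92 in arr10/12, against −0.21 in the triple mutant. AT2G19310 differed by −0.53 in arr10/12 and by 0.24 in the triple mutant. The 3 photosynthesis markers were higher in arr1/10/12 by 2.16 to 2.78, with no member of their list below background on any array. These markers also stood in the study's table of genes that changed in the mutants. Their part in the higher values of AT3G56350, DREB2A, HSP17.6A, and MDAR1 was not tested.

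**Figure D3:**
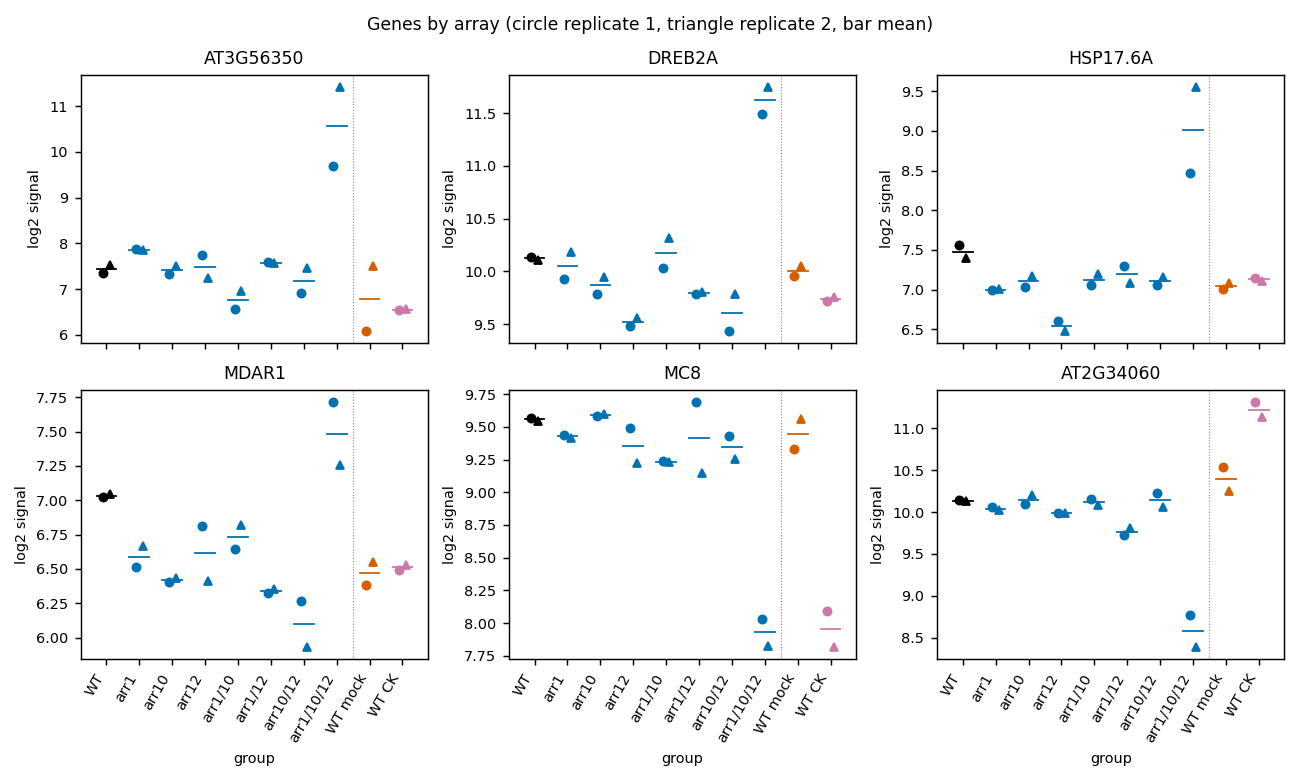
Log2 signal (y axis) of 6 genes on each array, by group (x axis), with circles for replicate 1, triangles for replicate 2, and bars for the mean. AT3G56350, DREB2A, HSP17.6A, and MDAR1 are highest in arr1/10/12, MC8 is low in arr1/10/12 and in CK-treated WT, and AT2G34060 is low in arr1/10/12 and highest in CK-treated WT.

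The thiol redox genes gave the largest differences in arr12, and these rested on single spots. NTRC, a plastid thioredoxin reductase, read 11.30 and 10.98 in WT and 11.12 and 2.53 in arr12, where the second array was not well above background. It lay between 10.79 and 11.62 on the other 18 arrays. The mean difference of −4.32 was −0.02 without replicate 2 of arr12. PMSR3, a methionine sulfoxide reductase, read 14.01 and 14.27 in WT and 14.30 and 8.33 in arr12, and its mean difference of −2.82 was 0.17 without replicate 2.

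The probe of PMSR3 was printed on 2 spots. On replicate 2 of arr12 the spot through which it was paired read 2.53 and the other spot read 14.13, a gap of 11.6, while the median gap between these spots over the 20 arrays was 0.02. The low spots of NTRC and PMSR3 lay in rows 85 and 81 and columns 155 and 154 of the array. Of the 61657 spots, 40 read more than 3 below their mean over the 18 arrays of the other groups on this array, and 21 of these were among the 120 spots within 5 rows and columns of the PMSR3 spot. On replicate 1 of arr12 none of those 120 spots was low. This count was made after the values were seen.

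AT1G68850 was also listed for arr12. Its single spot on replicate 1 of arr12 was marked as an outlier by the scanner software and was left out of the fit, so that the value for arr12 rests on replicate 2, which read 14.64 against 14.74 and 14.72 in WT. The difference was −0.09 without the outlier spot and −0.80 with it. In the authors' table, which kept the spot but rests on median intensity and its own normalization, it was −2.89. Of the 5 members that the study placed in the cluster of arr12, the remaining pair, DREB2A and HSP17.6A, were lower on both arr12 arrays, with differences of −0.60 and −0.93. TRX5, the third thiol gene, read 16.56 and 16.72 in WT, 16.00, 16.12, and 16.41 (lowest, median, highest) on the 6 arrays of the double mutants, and 16.08 and 16.50 in arr1/10/12, a difference of −0.34.

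**Figure D4:**
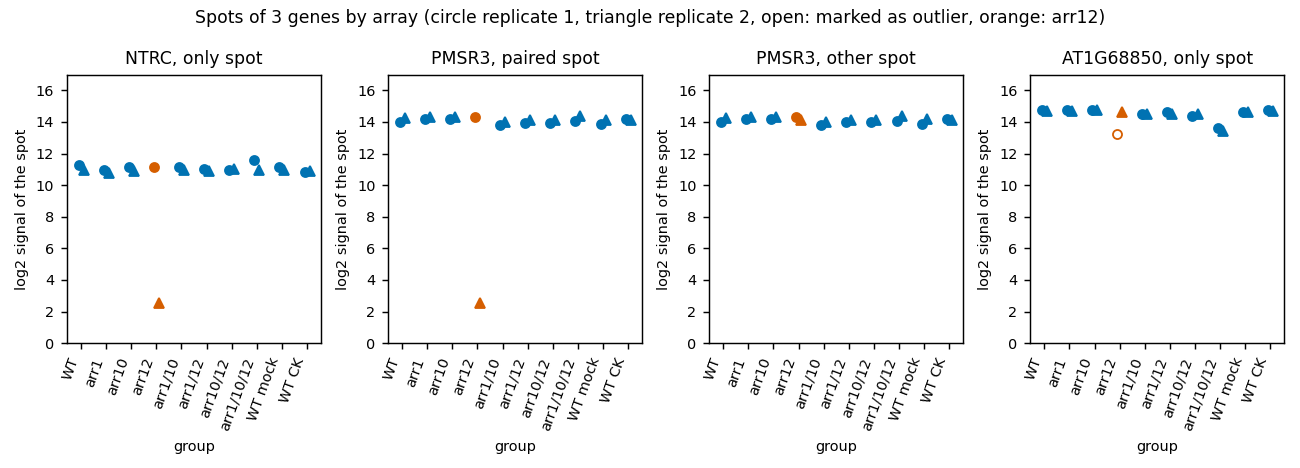
Log2 signal (y axis) of the single spots of NTRC and AT1G68850 and of both spots of PMSR3 on each array, by group (x axis). Orange marks arr12, circles replicate 1, triangles replicate 2, and the open symbol a spot marked as an outlier. NTRC and the paired spot of PMSR3 read 2.53 on replicate 2 of arr12, and the other spot of PMSR3 read 14.13 there.

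Of the 8 signalling and other genes, 7 were lower in the triple mutant, with a median of −0.95, and in the 6 other mutants their medians lay between −0.13 and 0.02. NP1, a mitogen-activated protein kinase kinase kinase also named ANP1, read 10.02 and 10.09 in WT, 10.13, 10.20, and 10.36 (lowest, median, highest) on the 6 arrays of the double mutants, and 8.81 and 9.00 in arr1/10/12. Its double mutants were all above WT. AT1G13340 (−1.15), AT2G22080 (−0.99), MIPS2 (−0.91), which encodes an inositol phosphate synthase, AT1G27330 (−0.76), and AT1G27350 (−0.57) followed, all with the triple mutant below every other array. AT2G21640, the exception, read 10.95 and 11.05 in WT, 10.40 and 10.23 in arr10, and 11.35 and 11.28 in arr1/10/12.

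The response to exogenous CK was tested between CK-treated and mock-treated WT. Of the 31 members, 1 rose and 1 fell, beside 3.54% and 3.03% of all probes called higher and lower. MC8, a metacaspase that acts in cell death, read 9.33 and 9.56 in mock-treated WT and 8.09 and 7.82 in CK-treated WT, without overlap. It was 2.81-fold lower (log2 difference −1.49 ± 0.16, limma with Benjamini-Hochberg adjustment, adjusted p = 0.00012). It read 9.57 and 9.55 in untreated WT and 8.03 and 7.82 in arr1/10/12 (−1.63), so that its signal was low both after CK and in the mutant that lacks all 3 ARRs.

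The peroxidase gene AT2G34060 read 10.54 and 10.25 in mock-treated WT and 11.31 and 11.13 in CK-treated WT. It was 1.77-fold higher (0.83 ± 0.13, limma with Benjamini-Hochberg adjustment, adjusted p = 0.0016). It read 10.15 and 10.13 in untreated WT and 8.78 and 8.40 in arr1/10/12. A fit on the 4 treated arrays alone gave the same difference for AT2G34060 but did not call it.

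The other 29 members were not called. For 24 of them the 95% interval of the difference lay within 1 log2 unit of 0, and for AT3G49960 it ran from −0.29 to 0.50. It was wider for AT1G05250, HSFA2, and AT3G56350, and widest for NTRC, where it ran from −4.03 to 3.61. Without replicate 2 of arr12, whose spread enters the shared fit of its probe, the interval of NTRC was −0.62 to 0.20 and that of PMSR3 −0.18 to 0.46. DREB2A differed by −0.27 and HSP17.6A by 0.09. The median over the members was −0.02, against 0.03 over all probes.

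**Figure D5:**
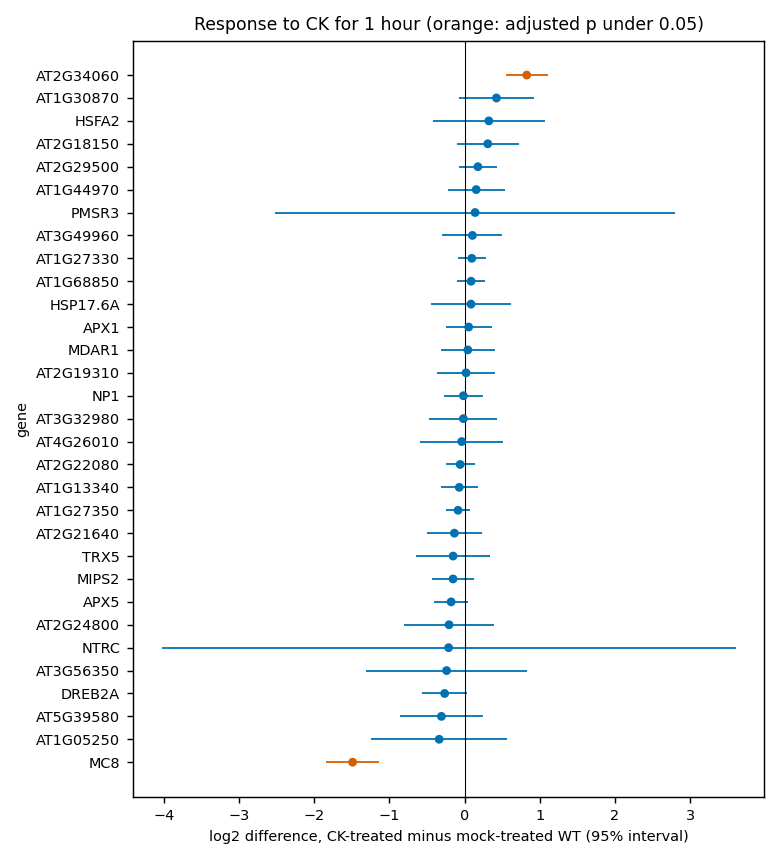
Log2 difference between CK-treated and mock-treated WT (x axis) for each of the 31 genes (y axis), with the 95% interval from the limma fit. Orange marks MC8 and AT2G34060, whose adjusted p was under 0.05, and the intervals of NTRC and PMSR3 are wide because 1 arr12 array enters the shared spread.

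Other genes of the same pathways that could be paired were taken from their descriptions, and all of them stood in the study's table of genes that changed in the mutants. Of 11 glutaredoxins and thioredoxins, 4 rose with CK and none fell, beside 3.54% and 3.03% of all probes. AT2G30540 (2.00 ± 0.26, adjusted p = 0.00047), AT4G15690 (1.47 ± 0.29, adjusted p = 0.0081), AT4G15680 (1.32 ± 0.32, adjusted p = 0.025), and GRXS13 (1.06 ± 0.17, adjusted p = 0.0017) are those 4 (limma), and AT4G15680 and AT4G15690 belong to a cluster of near-identical genes whose probes may not tell them apart. In mock-treated against untreated WT, given without a test, the 11 genes ranged from −0.97 to 2.32, with AT2G30540 at 1.08, AT4G15690 at 1.94, AT4G15680 at 2.32, and GRXS13 at −0.31. Of 11 glutathione S-transferases, which conjugate glutathione to toxic compounds, GSTU26 rose (1.02 ± 0.15, limma, adjusted p = 0.0013) and none fell. Of 7 further peroxidases, RHS18 rose (1.22 ± 0.22, limma, adjusted p = 0.0049) and none fell. None of the 3 other ascorbate cycle genes or the 7 other heat shock proteins was called. RBOHB, an NADPH oxidase that makes superoxide, differed by −0.82 ± 0.24 and was not called (limma, adjusted p = 0.074).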

How the data were processed

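Root RNA of the 10 groups was measured on 20 arrays. Per the labels, Cy3-labelled RNA was hybridized to Agilent one-colour arrays. The authors deposited scanner output, from which the background-subtracted intensity, the median pixel intensity, and the background intensity of each spot were taken, with the marks for spots well above background, saturated, or outlying. No normalization had been applied across arrays. The series' value table, also deposited, is in log2 and matches quantile normalized log2 median intensity of the 16 untreated and, apart, the 4 treated arrays (largest difference 5e-09).

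The intensities were log2 transformed and quantile normalized over 61657 non-control spots, outlier spots (1 to 386 per array) were dropped, and probes printed more than once took the mean of their spots. No spot was saturated. A probe was tested when some group had it well above background in each of its replicates (34034 of 43603). All 31 members passed, 21 of them on 1 spot. The number of arrays limits the precision. With 2 against 2 arrays, limma 3.58.1 in R 4.3.3 (lmFit, eBayes, 10 residual and 2.11 prior degrees of freedom) was fitted with 1 coefficient per group over all arrays, and p-values were adjusted by Benjamini-Hochberg over all probes. The script was tested on simulated data. Other steps used Python 3.11.15, numpy 2.4.6, pandas 2.3.3, and scipy 1.17.1.

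The array files name probes only. Genes were paired by their differences in the study's table of regulated genes, used for identity alone, and gene symbols came from RefSeq (TAIR10.1). No sequences are printed. The members, lists, and tests were chosen with earlier results of these data known. Values by array are given for members called with CK, the lowest and highest member of each class in arr1/10/12, the 3 lowest in arr12, and the lowest in each double mutant; the genes closest in pattern were those with the highest r over 10 group means. AT3G49960, AT1G30870, AT4G26010, AT2G18150, DREB2A, NP1, and HSFA2 were added after their values were seen.

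Replicate 1 of all untreated groups shared a slide and a scan day, as did replicate 2. The departures of the first replicates from their group means were correlated in all 28 pairs of untreated groups (r = 0.17 to 0.52), and not between mock-treated and CK-treated WT (r = −0.04). Alternatives were 75th percentile scaling, normexp correction with an offset of 50 on the median intensity, the authors' table, other filters, a replicate block, a fit on the 4 arrays compared, array weights, each array left out, and the methods' t-test.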

Additional observations from a re-analysis of the deposited data

Results flagged for a closer look

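The loss of 1 ARR from WT was set beside the loss of the same ARR from the double mutant of the other 2, which gives arr1/10/12. The cases given below are those in which every array of the mutant lay on 1 side of WT and every array of the triple mutant on the opposite side of the double mutant. With 2 arrays per group such separation can arise without an effect. How often it arose over all probes was not counted, so nothing is read from the number of cases. The difference between the 2 effects was not tested, the effects share the selection of the members, and the probe for ARR1 was not lower on the arrays labelled arr1, although ARR5 and ARR7 were.

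For ARR12, the effect in arr1/10 exceeded the effect in WT by 2.82 for HSP17.6A (−0.93 in WT and 1.89 in arr1/10), 2.05 for DREB2A, and 1.17 for MDAR1. For ARR10, the effect in arr1/12 exceeded that in WT by 2.19 for HSP17.6A, 2.08 for DREB2A, 1.76 for MDAR1, and 1.32 for AT2G21640. It was below that in WT for AT3G49960 (−1.77), MC8 (−1.52), AT1G30870 (−1.31), AT4G26010 (−1.21), MIPS2 (−1.19), AT1G68850 (−1.10), and AT3G32980 (−0.77). For the arrays labelled arr1, set beside the step from arr10/12 to the triple mutant, the differences were 2.38 for HSP17.6A, 1.82 for MDAR1, 1.66 for AT5G39580, 0.84 for AT2G21640, −1.14 for MIPS2, −1.23 for AT1G13340, and −1.80 for AT3G49960. HSP17.6A and MDAR1 appeared for all 3 ARRs, with values below WT in every single mutant and above every double mutant in the triple mutant. The 3 comparisons of a gene share the same arrays of WT and of the triple mutant, so they are not independent of each other.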

How the results depend on the processing

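MC8 and AT2G34060 kept their direction with CK under all alternatives run, including a replicate block (1 member lower and 1 higher) and each of the 4 treated arrays left out (1 and 1 each time). Only the fit on the 4 arrays (0 higher, AT2G34060 at 0.83) and the methods' t-test after Benjamini-Hochberg adjustment (0 higher and 0 lower) lost a call, and the methods' t-test without adjustment gave 2 higher and 2 lower. The median difference in arr1/10 was −0.28 with 75th percentile scaling, −0.20 with normexp, and −0.20 in the authors' table. In arr1/10/12 it was −1.04 with normexp and −1.09 in the authors' table. With each array left out, the medians ran from −0.11 to −0.046 for arr1, −0.041 to 0.0014 for arr10, −0.20 to −0.047 for arr12, −0.27 to −0.23 for arr1/10, −0.32 to −0.18 for arr1/12, −0.30 to −0.16 for arr10/12, −1.19 to −1.03 for arr1/10/12, and −0.28 to −0.17 for mock-treated WT. Moves of over 1.5 times came in arr12 without its replicate 1 (−0.20), its replicate 2 (−0.047), WT replicate 1 (−0.18), or WT replicate 2 (−0.14), in arr10/12 without WT replicate 2 (−0.16), and in arr1 without its replicate 2 (−0.046), besides those in arr10 and those with CK, whose medians ran from −0.064 to 0.071. Members called lower were 1 in arr1/12 and 0 in arr10/12 with 75th percentile scaling and in the authors' table, where 1 was called in arr12. The cause of these changes was not tested. Mock-treated and untreated WT were normalized apart in the authors' table, which gives no value for that comparison. AT1G68850 in arr12 was −0.17 with 75th percentile scaling and −0.07 with a replicate block.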
